A study of Mus musculus with 18 samples.

Results

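The 37 genes described here encode the contractile and anchoring machinery of the heart muscle cell: the thick and thin filaments, the M-band, the Z-disc with the desmin and attachment proteins around it, and a pair of proteins that help assemble myosin. They are a list of cardiac sarcomere and Z-disc genes taken by name, with no threshold on a measured value, but drawn up with earlier results of these data known. All 37 are present in the deposited table of 24419 gene symbols. All 37 are among the 13333 symbols that reached 1 FPKM (fragments per kilobase of transcript, scaled to the mapped fragments of the library) in at least 1 of the 18 mice. The study modelled acute myocardial infarction (AMI) in C57BL/6 mice that were 8 weeks old and male, by ligating the proximal left anterior descending coronary artery under sodium pentobarbital (50 mg/kg). PolyA RNA of the infarcted left ventricle was sequenced. There were 3 mice in each of 6 groups: control (sham) hearts, and AMI hearts taken after 10 min or after 1, 6, 24 or 72 h of ligation. No transgene or drug was part of these groups. Each library came from 1 piece of bulk tissue, so in every result below fewer cardiomyocytes in the piece and less RNA per cardiomyocyte cannot be told apart.

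In striated muscle the sarcomere is the repeating unit in which myosin of the thick filament pulls on actin of the thin filament. Troponin and tropomyosin make this pull depend on calcium, titin spans from the Z-disc to the M-band as a spring and ruler, and the Z-disc crosslinks thin filaments of neighbouring sarcomeres and passes force to desmin and the cell membrane. Cardiac troponins released from dying cardiomyocytes are the blood test by which myocardial infarction is diagnosed, and several of these genes are known for inherited cardiomyopathy. The genes were grouped by role into 12 of the thick filament and M-band, 9 of the thin filament, 14 of the Z-disc, desmin and attachment, and 2 of assembly.

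In control hearts these genes held many of the most abundant transcripts. Tnnt2, cardiac troponin T, was the most abundant gene of the whole table at 22862 ± 1227 FPKM (mean ± SD, n = 3), followed by Myl3 and Myl2, the essential and regulatory light chains of ventricular myosin, at 11851 ± 314 and 11737 ± 684 FPKM. Of the 10 most abundant genes in control hearts 5 were sarcomere genes, and of the 50 most abundant 10 were. By mean control FPKM 10 of the 37 genes were at or above 1000, 14 between 100 and 1000, 9 between 10 and 100, and 4 below 10. Those 4 were Myom3, the least abundant of the myomesins, Tnni1, the slow skeletal troponin I that the fetal heart uses, and Myl4 and Myl7, the essential and regulatory light chains of atrial myosin. At 0.271 FPKM for Tnni1 and 0.0629 FPKM for Myl7 both lay near the bottom of the measured range.

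**Figure D1:**
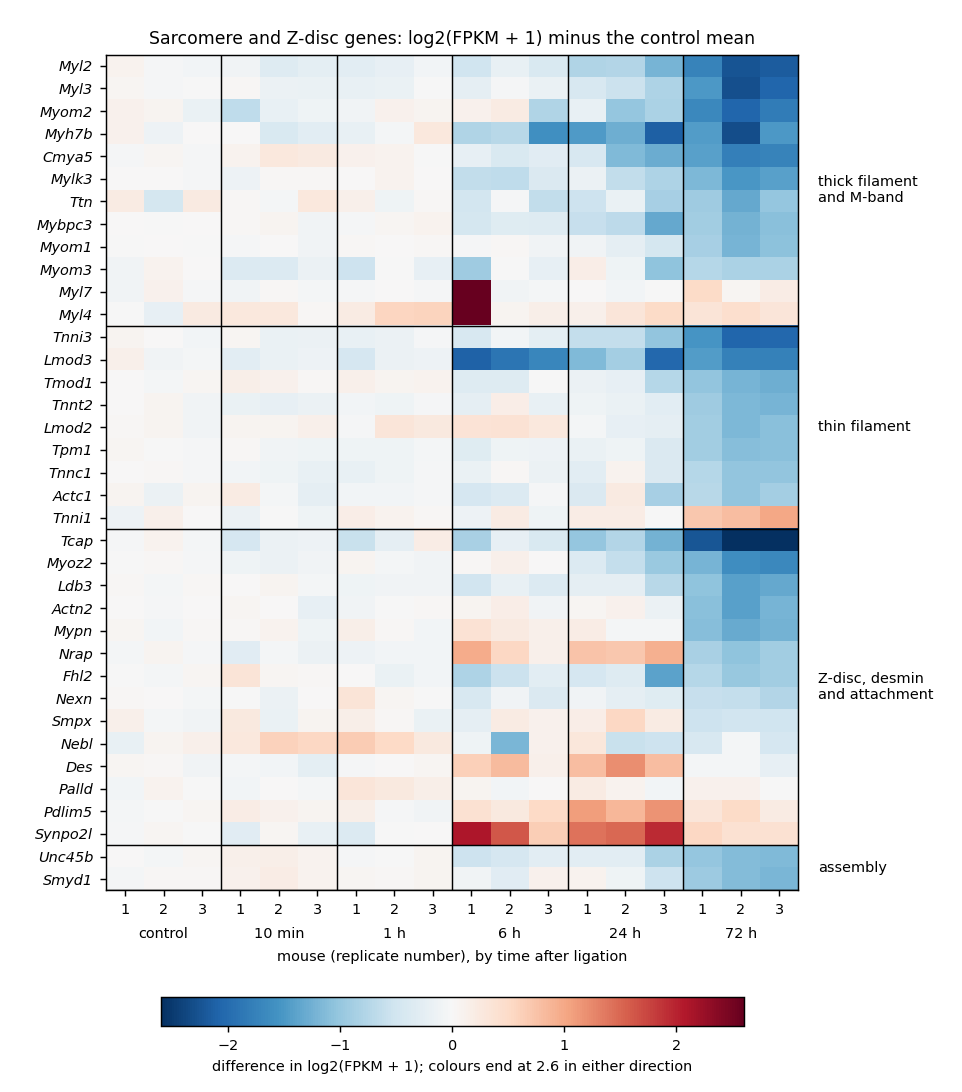
Each cell shows log2(FPKM + 1) of a gene (rows, by role) in 1 mouse (columns, by time after ligation) minus the mean of the 3 control mice. Few genes depart from control at 10 min and 1 h, and Lmod3 and Myh7b are lower and Synpo2l higher from 6 h. At 72 h 29 of the 37 genes are called lower, beside 24.2% of all genes. Myl4 and Myl7 stand out in replicate 1 at 6 h only.

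Together the 37 genes made up 13.2% ± 0.326 of all FPKM in control mice (mean ± SD, n = 3), and this share was 12.3% ± 0.398 after 10 min and 12.6% ± 0.431 after 1 h. It was 11.5% ± 0.992 in the 6-h group, 9.86% ± 1.16 in the 24-h group and 5.45% ± 0.670 in the 72-h group. All 3 mice at 72 h, at 6.22%, 5.03% and 5.10%, lay below all 3 at 24 h, at 10.5%, 10.6% and 8.53%. The third 24-h mouse, with the lowest share of its group, had the lowest level of the 3 for 29 of the 37 genes.

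RefSeq promoter windows (assembly GRCm38.p6, 250 bases before to 50 bases after each start) were matched by symbol for 33 of the 37 genes, as 46 windows, and Myom2, Tcap, Nexn and Lmod3 were not matched. The windows were searched on both strands for 3 motifs of muscle promoters: the CArG box, which serum response factor binds, the MEF2 box, and the M-CAT element (CATTCC), which TEAD factors bind. The CArG box occurred in 9 of the 46 windows (19.57%, 7 genes), against 1.629% of all 32851 windows of the table, and the MEF2 box in 7 windows (15.22%, 6 genes), against 3.187%. M-CAT was found in 11 windows (23.91%, 11 genes), against 14.66%. No motif overlapped another in these windows, and 2 of the 9 CArG windows are neighbouring starts of Ldb3 that hold the same box. The 150 bases before the start follow, on the strand of the gene, for genes whose RNA moved differently over the time course, with the CArG or MEF2 box in capitals.
Actc1 (cardiac alpha-actin, CArG box, chr2:114052876-114053025, - strand): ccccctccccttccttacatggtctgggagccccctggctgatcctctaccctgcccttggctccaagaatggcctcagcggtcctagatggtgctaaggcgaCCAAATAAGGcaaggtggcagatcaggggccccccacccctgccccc
Myl3 (ventricular essential light chain, CArG box, chr9:110763528-110763677, + strand): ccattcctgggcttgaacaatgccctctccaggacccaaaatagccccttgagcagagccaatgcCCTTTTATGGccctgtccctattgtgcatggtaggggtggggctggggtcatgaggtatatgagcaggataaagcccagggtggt
Ldb3 (the Z-disc protein ZASP, CArG box, chr14:34588682-34588831, - strand): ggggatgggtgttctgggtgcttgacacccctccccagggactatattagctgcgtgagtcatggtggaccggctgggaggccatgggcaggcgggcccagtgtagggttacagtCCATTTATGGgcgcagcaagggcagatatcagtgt
Fhl2 (a LIM protein of the Z-disc and nucleus, CArG box then MEF2 box, chr1:43196762-43196911, - strand): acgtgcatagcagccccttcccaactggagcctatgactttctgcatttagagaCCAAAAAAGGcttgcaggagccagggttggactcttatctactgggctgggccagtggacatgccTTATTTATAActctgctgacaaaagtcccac
Mybpc3 (cardiac myosin-binding protein C, MEF2 box, chr2:91117994-91118143, + strand): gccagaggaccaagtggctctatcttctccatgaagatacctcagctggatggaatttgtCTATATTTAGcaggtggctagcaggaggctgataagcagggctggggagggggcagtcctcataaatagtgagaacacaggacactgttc
Myoz2 (calsarcin-1, MEF2 box, chr3:123034988-123035137, - strand): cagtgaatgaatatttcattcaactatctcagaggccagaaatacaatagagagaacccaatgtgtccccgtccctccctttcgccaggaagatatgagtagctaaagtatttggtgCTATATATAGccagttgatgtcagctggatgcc
Synpo2l (CHAP, a Z-disc protein, MEF2 box, chr14:20668355-20668504, - strand): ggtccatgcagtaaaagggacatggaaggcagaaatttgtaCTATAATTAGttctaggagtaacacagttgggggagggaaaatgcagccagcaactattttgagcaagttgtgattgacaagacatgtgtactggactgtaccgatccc
A match is a run of letters, and binding was not measured. The MEF2 boxes differ in letters between these genes. At 24 h Mybpc3 and Myoz2 fell by 0.87 and 0.64 on the log2 scale, and Synpo2l was higher by 1.61. The MEF2 box of Synpo2l lies 109 bases before the start shown, and another of its starts has one at 144 bases. The other MEF2 genes Ttn, Myom3 and Fhl2 were not called at 24 h, at 69.2%, 81.3% and 63.6% of control. Whether a box had a part in these changes was not tested.

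Some libraries and cell types moved with the times and are given here once. Summed FPKM of 8 leukocyte markers was 28.8 to 33.1 in control mice and 555 to 610.2 at 72 h, where 8 of 8 were called higher. Already at 24 h all 8 were higher, at sums of 166 to 385 FPKM. The 7 macrophage markers went from 187 to 218 FPKM in control mice up to 1786 to 2283 at 72 h (7 of 7 higher), and 6 of 7 were higher at 24 h. Over 7 fibroblast markers the sum went from 231 to 260.2 FPKM up to 3661 to 4792 (7 of 7 higher, and 4 of 7 at 24 h). Over 7 smooth muscle and mural markers it went from 291 to 349 up to 641 to 843 (5 of 7 higher, 2 lower). Of all genes tested 26.2% were called higher at 24 h and 53.1% at 72 h, and 24.2% were called lower at 72 h. The third 24-h mouse stood apart with 385 FPKM of leukocyte markers, against 166 and 167 in the others of its group, and neutrophil markers were uneven at 6 h (116 to 991 FPKM) and at 24 h (42.8 to 956 FPKM). Sums of 4 erythroid markers were uneven too, at 75.2 to 1486 FPKM in control mice and 35.0 to 871 at 24 h, and less so at 72 h (626 to 928). Of 6 endothelial markers 3 were called lower and 0 higher at both 24 h and 72 h, beside 11.4% and 24.2% of all genes called lower. Among 13 markers of skeletal muscle fibres Myh4 was at 0 in every mouse and Myh1 and Myh2 at no more than 0.0212 FPKM, while the sum over the list was 38.8 to 53.6 FPKM in control mice and 56.8 to 66.3 at 72 h. Of the 7 of these markers that were tested 2 were called higher and 2 lower at both 24 h and 72 h, and Tnnt3 had the highest rise at 72 h (3.18, SE 0.21, adjusted p = 2.07e-06). The part of these cells in the results below was not tested, except where a value is given. Relative depth, estimated from the step size of low FPKM values, ranged from 0.812 to 1.32 of the control median and was highest at 72 h (1.301).

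Several atrial genes were high in replicate 1 at 6 h. Myl4 was at 63.0, 1.72 and 1.91 FPKM in the 3 mice at 6 h, and at 1.57, 1.23 and 2.07 FPKM in control mice. Myl7 was at 18.7, 0 and 0.0193 FPKM at 6 h against 0, 0.151 and 0.0379 FPKM in control mice. Replicate 1 at 6 h thus had both genes far above every other library, while replicates 2 and 3 lay within the control range. Sln, the atrial calcium pump inhibitor sarcolipin, was at 12.5, 0 and 0 FPKM at 6 h, Mybphl at 4.77, 0.0818 and 0.188 and Bmp10 at 2.48, 0 and 0, with Bmp10 at 0 in all 17 other mice. The other 3 atrial markers stood less apart in this mouse, with Nppa at 851, 606 and 254 FPKM, Stard10 at 19.7, 19.8 and 14.7 and Kcnj3 at 12.2, 13.8 and 22.5. Neither Myl4 (1.62, SE 1.11, adjusted p = 0.3) nor Myl7 (1.36, SE 1.05, adjusted p = 0.355) was called at 6 h. Without this mouse 8 genes were lower and 3 higher at 6 h, against 9 and 4 with it.

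**Figure D2:**
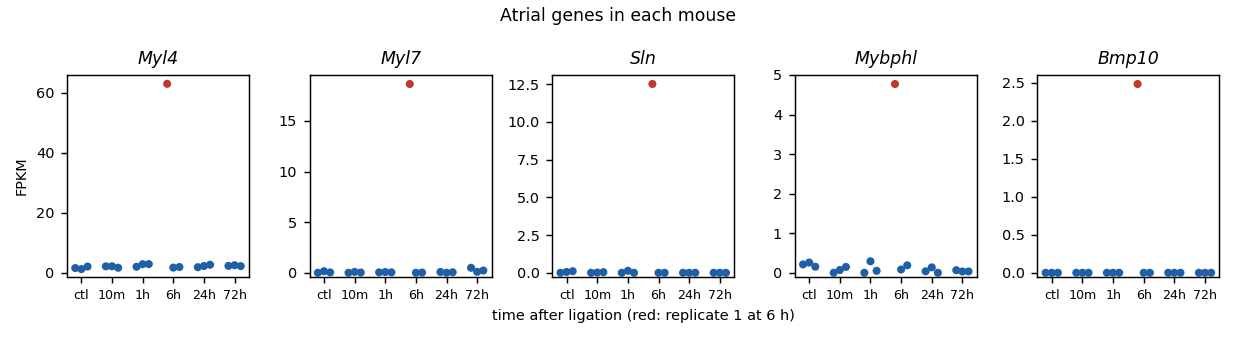
FPKM of 5 atrial genes (y axes, linear, separate scales) in each of the 18 mice by time after ligation, with replicate 1 at 6 h in red. That mouse reaches 63.0 FPKM of Myl4 and 18.7 of Myl7, and every other mouse lies near the floor of each panel.

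Whether the sarcomere genes moved in the first hour was asked of the 10-min and 1-h samples. None of the 37 was called lower or higher at 10 min (adjusted p under 0.05 in limma), where 0.0978% of all 13297 genes tested were called lower and 0.248% higher, and none at 1 h, where the background was 0.0526% lower and 0.669% higher. At an unadjusted p under 0.05 there were 6 lower and 4 higher at 10 min, beside 6.0% and 8.7% of all genes, and 2 lower and 3 higher at 1 h, beside 7.06% and 5.52%. The median log2 fold change was -0.04 at 10 min and 0.01 at 1 h, beside 0.02 and -0.02 over all genes. Nebl, nebulette, which binds actin at the Z-disc, had the largest difference from control at both times. It had 22.7, 27.5 and 29.0 FPKM in control mice, 32.2, 40.3 and 38.7 FPKM at 10 min and 42.2, 38.3 and 31.7 FPKM at 1 h, so that all 6 early AMI mice lay above all 3 controls, but neither difference passed (0.47 (SE 0.11, adjusted p = 0.14) and 0.48 (SE 0.12, adjusted p = 0.208)). Such separation was not particular to Nebl. Smyd1 also lay above every control in all 6 early mice, and Myl2, Tnnc1, Lmod3 and Nrap lay below. The share of all genes separated in this way was not computed.

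At 6 h 9 of the 37 genes were lower, beside a background of 16.8% of genes called lower, and 4 were higher, beside 11.6%. The median log2 fold change was -0.16, against -0.08 over all genes, and lower calls made up 59.1% of all calls as deposited and 45.2% after median-of-ratios scaling. The thick filament and M-band gave 5 of the 9 falls and no rise, the thin filament 1 fall and 1 rise, the Z-disc group 2 falls and 3 rises, and assembly 1 fall. The genes that fell by most at 6 h were Lmod3, Myh7b, Mylk3, Fhl2 and Unc45b, and Myl2, Mybpc3, Ldb3 and Cmya5 fell by 0.30 to 0.37 on the log2 scale. Removing 1 of the 3 control mice left 2 to 5 of the falls and 0 or 1 of the rises called.

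Lmod3 (leiomodin 3, chr6:97238534-97252759, - strand in the GENCODE annotation of GRCm38), which nucleates and lengthens thin filaments, had the largest fall of the list at 6 h. Its level was 42.4, 36.4 and 37.6 FPKM in control mice, 32.0, 34.3 and 35.3 in the 10-min group and 28.5, 34.9 and 35.2 in the 1-h group. It was then 8.22, 9.71 and 11.2 FPKM in the 6-h mice, 17.0, 20.6 and 8.62 in the 24-h mice and 13.6, 10.7 and 10.8 in the 72-h mice. No AMI mouse at any time, 10 min and 1 h included, reached the level of any control, though the early differences were not called. The mean at 6 h was 25.1% of control (log2 fold change -1.90, SE 0.12, adjusted p = 0.000269). The fall was -1.35 (SE 0.28, adjusted p = 0.0131) at 24 h and -1.65 (SE 0.10, adjusted p = 1.31e-06) at 72 h, and the steps from 6 h to 24 h (0.54, SE 0.29, adjusted p = 0.213) and from 24 h to 72 h (-0.30, SE 0.28, adjusted p = 0.427) were not called.

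Its relative Lmod2, which does the same at the pointed ends of cardiac thin filaments, went the other way at 6 h. Lmod2 stood at 124, 127 and 114 FPKM in control mice, 128, 127 and 133 in the 10-min group and 119, 151 and 145 in the 1-h group. Later it stood at 156, 158 and 147 FPKM in the 6-h mice, 117, 105 and 103 in the 24-h mice and 64.4, 53.4 and 56.6 in the 72-h mice. All 3 mice at 6 h were above, and all 3 at 72 h below, every control, by 0.34 (SE 0.07, adjusted p = 0.0152) and -1.06 (SE 0.08, adjusted p = 6.13e-06) on the log2 scale. Tmod1, tropomodulin, which caps the same ends, was not called at 6 h (-0.23, SE 0.10, adjusted p = 0.13) and fell at 72 h (-1.17, SE 0.08, adjusted p = 1.9e-06), and 32.6% of its exon bases overlap Tstd2 on the opposite strand, whose reads cannot be told apart where strand is not counted.

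Myh7b, a slow myosin heavy chain expressed at low level in heart, fell early and stayed low. It had 13.2, 10.9 and 12.1 FPKM in control mice, 12.1, 8.87 and 9.78 in the 10-min group and 10.4, 11.6 and 14.8 in the 1-h group. It had 6.59, 6.87 and 3.34 FPKM in the 6-h mice, 3.69, 4.40 and 1.99 in the 24-h mice and 3.79, 1.62 and 3.66 in the 72-h mice. All 9 mice from 6 h on lay below the lowest control, with log2 fold changes of -1.03 (SE 0.23, adjusted p = 0.016), -1.62 (SE 0.22, adjusted p = 0.00471) and -1.75 (SE 0.21, adjusted p = 8.21e-05).

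Mylk3, the cardiac kinase of the regulatory light chain, was among the genes that fell at all of 6, 24 and 72 h. Its values were 799, 799 and 776 FPKM in control mice, 722, 812 and 809.6 in the 10-min group and 795, 841 and 800.0 in the 1-h group. The 6-h mice had 506, 497 and 611 FPKM, the 24-h mice 708, 506 and 453 and the 72-h mice 353, 277 and 299. Every mouse from 6 h on was below every control, and the log2 fold changes were -0.56 (SE 0.09, adjusted p = 0.00597), -0.54 (SE 0.17, adjusted p = 0.0416) and -1.36 (SE 0.10, adjusted p = 3.3e-06). The 24-h call was lost without any 1 control mouse and without 24-h replicate 2 or 3 (-0.55 to -0.40, adjusted p from 0.0634 to 0.120).

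Fhl2, whose start is preceded by both a CArG and a MEF2 box, had 942, 917 and 979 FPKM in control mice, 1185, 979 and 969 in the 10-min group and 949, 838 and 899 in the 1-h group. It was then at 543, 644 and 785 FPKM in the 6-h mice, at 698, 748 and 359 in the 24-h mice and at 566, 475 and 502 in the 72-h mice. It was below every control from 6 h on, called at 6 h (-0.54, SE 0.13, adjusted p = 0.0215) and 72 h (-0.88, SE 0.09, adjusted p = 2.7e-05) and not at 24 h (-0.72, SE 0.27, adjusted p = 0.069), where the third mouse was far below the others. Unc45b, the muscle chaperone of myosin, had 77.3, 73.7 and 79.1 FPKM in control mice, 84.4, 85.3 and 81.5 in the 10-min group and 75.3, 76.2 and 80.1 in the 1-h group. Later levels were 52.4, 56.7 and 63.6 FPKM in the 6-h mice, 63.4, 63.5 and 43.1 in the 24-h mice and 37.5, 34.8 and 34.0 in the 72-h mice. It fell at 6 h (-0.41, SE 0.09, adjusted p = 0.0146) and 72 h (-1.09, SE 0.07, adjusted p = 1.09e-06). Smyd1, a methyltransferase that acts with it on myosin, had 157, 165 and 165 FPKM in control mice, 177, 187 and 174 in the 10-min group and 169, 166 and 170.4 in the 1-h group. Among the 6-h mice Smyd1 had 153, 132 and 176 FPKM, among the 24-h mice 174, 151 and 111 and among the 72-h mice 84.3, 74.1 and 70.7. Its 6-h and 24-h mice lay on both sides of the controls and it was called at 72 h alone of the 3 late times (-1.08, SE 0.08, adjusted p = 3.15e-06).

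At 24 h 11 genes were lower, beside a background of 11.4%, and 4 were higher, beside 26.2%. The median was -0.28 for the 37 genes and 0.13 for all genes tested. Lower calls made up 30.2% of all calls as deposited, 49.7% after median-of-ratios scaling and 56.4% after quantile normalization, which moved the median of all genes by -0.12 and -0.19. Of the thick filament and M-band genes 7 of 12 fell (Myl2, Myl3, Mybpc3, Myom2, Myh7b, Mylk3 and Cmya5). Of the thin filament genes 2 of 9 fell (Tnni3 and Lmod3), and of the Z-disc group 2 of 14 (Tcap and Myoz2). All 4 rises (Synpo2l, Pdlim5, Des and Nrap) belonged to the Z-disc, desmin and attachment group. Leaving out the third 24-h mouse gave 11 lower and 4 higher, and leaving out 1 control left 2 to 5 lower, fewest without the first, and 4 higher.

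The ventricular myosin light chains were among the genes that fell at 24 h. Myl2 had 12499, 11537 and 11175 FPKM in control mice, 10997, 9284 and 9789 in the 10-min group and 9675, 10071 and 11171 in the 1-h group. Of the later groups, the 6-h mice were at 8169, 10278 and 8958 FPKM, the 24-h mice at 6840.4, 6878 and 5068 and the 72-h mice at 3529, 2472 and 2630.0. Myl3 had 12213, 11645 and 11696 FPKM in control mice, 12099, 10732 and 10509.8 in the 10-min group and 10350.0, 10463 and 11763 in the 1-h group. The 6-h mice had 10139.8, 11605 and 10479.7 FPKM, the 24-h mice 8831, 8003 and 6791 and the 72-h mice 4224, 2414 and 2819. Both were below every control in all mice at 6, 24 and 72 h, and Myl2 was so at 10 min and 1 h too, where it was not called. At 24 h their means were 53.4% and 66.4% of control (log2 fold change -0.92, SE 0.16, adjusted p = 0.00891 for Myl2). The value for Myl3 was -0.60 (SE 0.15, adjusted p = 0.0213). Under quantile normalization the 24-h difference of Myl3 turned to 0.065, and that of Myl2 was -0.27 and not called (adjusted p = 0.291). That setting assigns values by rank, and Myl3 and Myl2 were at ranks 2 and 3 in control mice. For genes this abundant it can hide a fall, so it cannot decide whether they fell. Without any 1 control mouse the Myl3 call was lost at a fold of like size (-0.61 to -0.58), and without the first control that of Myl2 (-0.87, adjusted p = 0.0512).

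Among the troponins Tnni3, the inhibitory subunit of the adult heart, fell at 24 h and Tnnt2 and Tnnc1 were not called. Tnni3 had 5503, 5267 and 5029 FPKM in control mice, 5440.2, 4642 and 4753 in the 10-min group and 4584, 4712 and 5127 in the 1-h group. It was then at 3935, 5006 and 4405 FPKM in the 6-h mice, at 3443, 3405 and 2589 in the 24-h mice and at 1823, 1264 and 1278 in the 72-h mice. Its 24-h mean was 59.7% of control (log2 fold change -0.75, SE 0.15, adjusted p = 0.0113). Tnnt2 had 23074, 23970.2 and 21543 FPKM in control mice, 20252, 19712 and 20461 in the 10-min group and 21835, 21195 and 22252 in the 1-h group. Later levels were 19453, 25866 and 20090.5 FPKM in the 6-h mice, 21262, 20392 and 18799 in the 24-h mice and 11982, 10127 and 9942 in the 72-h mice. At 24 h its 3 mice lay just below the controls at 88.1% (log2 fold change -0.18, SE 0.15, adjusted p = 0.357, 95% interval -0.54 to 0.17). Tnnc1, the calcium-binding subunit, was at 89.1% of control at 24 h (-0.18, SE 0.14, adjusted p = 0.337), Tpm1, alpha-tropomyosin, at 86.3% (-0.22, SE 0.12, adjusted p = 0.174) and Actc1 at 82.8% (-0.34, SE 0.27, adjusted p = 0.339), with Actc1 of the 3 mice at 4178, 6335 and 2954 FPKM. Differences between these genes were not tested.

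Tcap and Cmya5 were among the 5 genes with the largest falls at 24 h, with Myh7b, Lmod3 and Myl2. Tcap (telethonin, chr11:98383811-98384953, + strand), which caps titin at the Z-disc, had 2363, 2576 and 2335 FPKM in control mice, 1778, 2165 and 2213 in the 10-min group and 1632, 2047 and 2769.7 in the 1-h group. Among the 6-h mice Tcap had 1357, 2089 and 1846 FPKM, among the 24-h mice 1201, 1437 and 1032 and among the 72-h mice 515, 309 and 389. All its mice at 10 min and from 6 h on lay below every control, while the third 1-h mouse lay above them. Tcap was not called at 6 h (-0.48, SE 0.15, adjusted p = 0.0524) but fell at 24 h (-0.998, SE 0.14, adjusted p = 0.00519). Cmya5, myospryn, which binds titin at the M-band, had 293, 311 and 295 FPKM in control mice, 322, 365 and 354 in the 10-min group and 325, 319 and 299.7 in the 1-h group. Of the later groups, the 6-h mice were at 259, 229 and 245 FPKM, the 24-h mice at 225, 136 and 121 and the 72-h mice at 112, 86.9 and 89.2. It fell at 6 h (-0.30, SE 0.07, adjusted p = 0.0232) and by more at 24 h (-0.95, SE 0.22, adjusted p = 0.0175), and the difference between those times was not called (-0.65, SE 0.22, adjusted p = 0.0837).

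The genes that rose at 24 h all belong to the Z-disc, desmin and attachment group. Synpo2l (chr14:20658946-20668354, - strand) had 17.3, 18.4 and 17.6 FPKM in control mice, 14.3, 18.4 and 15.4 in the 10-min group and 13.7, 17.7 and 17.8 in the 1-h group. It had 79.8, 56.2 and 28.1 FPKM in the 6-h mice, 48.9, 51.7 and 71.4 in the 24-h mice and 26.3, 23.8 and 23.7 in the 72-h mice. All 9 late mice were above all 9 control and early mice, with a ratio of means to control of 3.07 at 6 h and 3.22 at 24 h (1.45 (SE 0.33, adjusted p = 0.0177) and 1.61 (SE 0.15, adjusted p = 0.00178) on the log2 scale). Pdlim5, ENH, a PDZ-LIM scaffold of the Z-disc that other cell types also express, had 84.6, 86.6 and 91.1 FPKM in control mice, 99.4, 93.9 and 91.4 in the 10-min group and 97.8, 85.8 and 82.5 in the 1-h group. The 6-h mice had 115, 105 and 126 FPKM, the 24-h mice 187, 159.7 and 199 and the 72-h mice 109, 124 and 101. Its 6-h and 24-h mice lay above every control (0.39 (SE 0.09, adjusted p = 0.0161) and 1.04 (SE 0.10, adjusted p = 0.00205)).

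Des, desmin, the intermediate filament that ties Z-discs together, had 693, 678 and 629 FPKM in control mice, 641, 636 and 556 in the 10-min group and 649.7, 675 and 694 in the 1-h group. It was then at 1017, 1179 and 732 FPKM in the 6-h mice, at 1166, 1534 and 1162 in the 24-h mice and at 642, 644 and 577 in the 72-h mice. It was higher at 6 h by a margin at the threshold (0.52, SE 0.16, adjusted p = 0.0495), a call that was lost after median-of-ratios scaling at a larger fold (0.62, adjusted p = 0.0525). It was also lost without any 1 control mouse and without the first or second 6-h mouse (0.37 to 0.55, adjusted p from 0.0934 to 0.144), and was smallest without the second. It rose at 24 h (0.94, SE 0.13, adjusted p = 0.00522). Nrap, which links nascent myofibrils to the intercalated disc, had 132, 144 and 133 FPKM in control mice, 111, 132 and 123 in the 10-min group and 124, 129 and 129 in the 1-h group. Later levels were 268, 199 and 151 FPKM in the 6-h mice, 229.6, 221 and 259 in the 24-h mice and 75.4, 66.0 and 72.0 in the 72-h mice. It was not called at 6 h (0.55, SE 0.19, adjusted p = 0.0645), where its mice differed most, rose at 24 h (0.79, SE 0.09, adjusted p = 0.00302) and fell below every control at 72 h (-0.93, SE 0.07, adjusted p = 5.06e-06). The 24-h rises of all 4 genes were called under each of 3 other scalings of the FPKM. At 24 h the summed smooth muscle and mural markers, which share desmin with cardiomyocytes, were at 256 to 299 FPKM against 291 to 349 in control mice. By gene 3 of the 7 were called lower and none higher in limma, beside 11.4% and 26.2% of all genes. Log2 fold changes of the 7 markers ran from -0.84 to 0.90, with 1 higher at an unadjusted p under 0.05. Their part in the rise of Des was not tested.

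**Figure D3:**
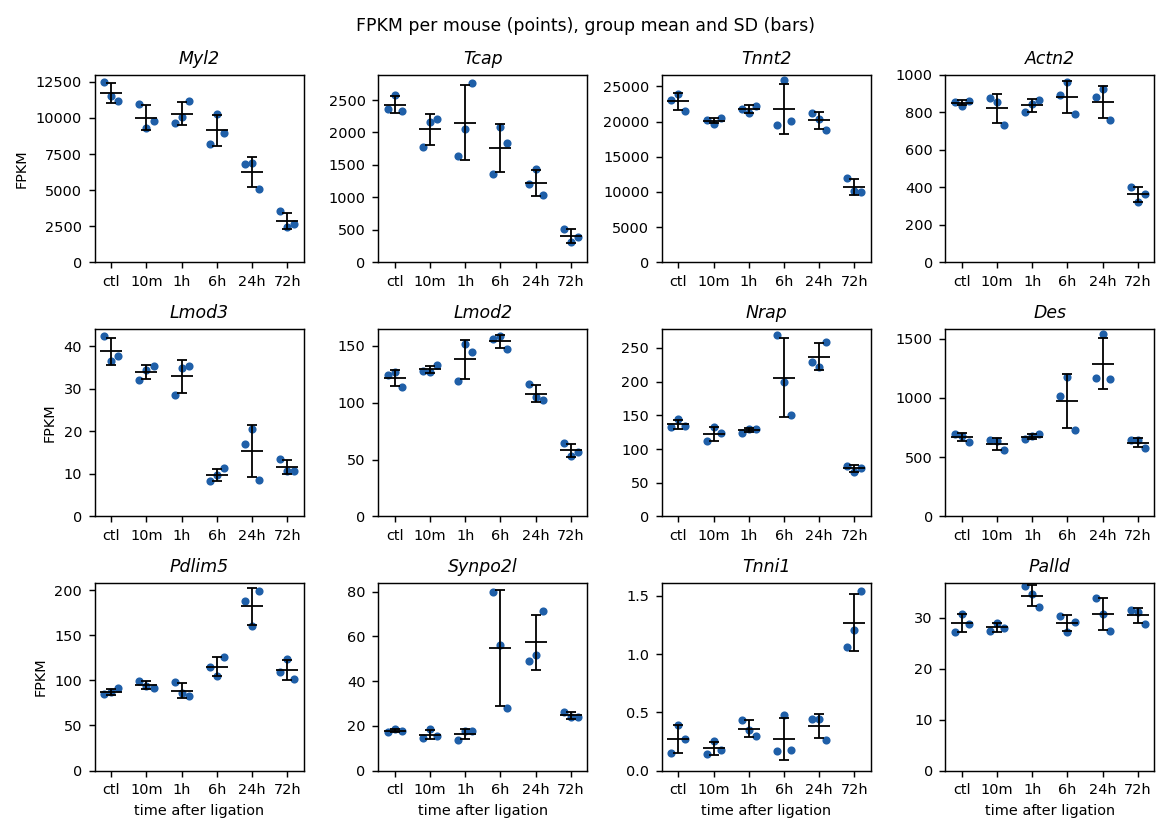
FPKM (y axes, linear from 0, separate scales) of 12 genes in each mouse by time after ligation (ctl, control), with group mean and SD as bars (n = 3). The means of Myl2 and Tcap go down at 6 h, at 24 h and again at 72 h, with the step from 6 h to 24 h not called. Tnnt2 and Actn2 drop at 72 h, Des, Nrap, Pdlim5 and Synpo2l peak at 6 h or 24 h, and Palld is level.

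At 72 h 29 of the 37 genes were lower, beside a background of 24.2% of all genes called lower, and 4 were higher, beside 53.1%. Their median log2 fold change was -1.07, with all genes tested at 0.29. Median-of-ratios scaling moved the median of all genes by -0.26 and quantile normalization by -0.41. Lower calls made up 31.3% of all calls as deposited, 47.9% after the first and 57.5% after the second. The median of the 37 genes was -1.39 after median-of-ratios scaling, -1.11 after quantile normalization (36 genes) and -0.99 at equal sums of FPKM, with all genes at 0.03, -0.12 and 0.36. By role 10 of 12 thick filament and M-band genes fell (median -1.22), 8 of 9 thin filament genes (-1.06), 9 of 14 Z-disc genes (-0.77) and 2 of 2 assembly genes (-1.09). The count of falls was 29 or 30 whichever mouse was left out. Leukocyte markers summed to 555 to 610.2 FPKM and fibroblast markers to 3661 to 4792 FPKM in these same mice, and their part in the falls was not tested.

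Tcap fell by most at 72 h, to 16.7% of its control mean (log2 fold change -2.61, SE 0.17, adjusted p = 1.69e-06). Next came Myl2, at 24.5% of control (-2.04, SE 0.16, adjusted p = 5.7e-06), Myl3 at 26.6% (-1.95, SE 0.20, adjusted p = 3.08e-05) and Tnni3 at 27.6% (-1.88, SE 0.16, adjusted p = 7.57e-06). Myom2, M-protein of the M-band, was the fifth. It had 759, 739.5 and 631 FPKM in control mice, 445, 616 and 657 in the 10-min group and 660.2, 769.9 and 744 in the 1-h group. Among the 6-h mice Myom2 had 759, 816 and 410.0 FPKM, among the 24-h mice 622, 353 and 398 and among the 72-h mice 219.5, 169 and 200.3. The 72-h difference was -1.85 (SE 0.12, adjusted p = 1.39e-06). Its 24-h fall (-0.67, SE 0.21, adjusted p = 0.0439) was not called without any 1 control mouse or without 24-h replicate 2 or 3 (-0.75 to -0.51, adjusted p from 0.0804 to 0.134).

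Of the remaining thick filament and M-band genes the following fell by less at 72 h. Ttn, titin, was at 46.0% of control (-1.09, SE 0.19, adjusted p = 0.00079), with 566, 351 and 574 FPKM in controls and 253, 193 and 239.7 at 72 h. Mybpc3 was at 47.7% (-1.07, SE 0.11, adjusted p = 3.11e-05) and Myom1, myomesin, at 48.4% (-1.05, SE 0.09, adjusted p = 1.07e-05), where 2.0% of the Myom1 exon bases overlap the far more abundant Myl12a on the opposite strand. Myom3 had 48.2% (-0.80, SE 0.08, adjusted p = 2.76e-05), Mylk3 39.1% and Cmya5 32.0%. Every one of these 6 had all 3 mice at 72 h below all 3 controls. The share of all genes separated in this way was not computed, and 24.2% of all genes were called lower at 72 h.

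Apart from Tnni3, Lmod3 and Tnni1, the thin filament genes fell by 0.87 to 1.17 on the log2 scale at 72 h. Tnnt2 was at 46.7% of control (-1.10, SE 0.16, adjusted p = 0.000276), Tpm1 at 49.0% (-1.03, SE 0.10, adjusted p = 2.57e-05), Tnnc1 at 52.6% (-0.93, SE 0.11, adjusted p = 5.76e-05), Actc1 at 54.6% (-0.87, SE 0.13, adjusted p = 0.000301) and Lmod2 at 47.8%. Under quantile normalization Actc1, at rank 6 in control mice, turned to 0.011, and assignment by rank can hide falls of abundant genes. The exons of Actc1 are closely alike to those of Acta1, and tropomyosin genes are alike too, so reads may have been shared between them in the counting.

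Among Z-disc genes Actn2, alpha-actinin, which crosslinks the thin filaments there, was level until 24 h and fell at 72 h. It had 858, 835 and 858 FPKM in control mice, 884, 923 and 761 in the 24-h mice and 401, 320.2 and 366 in the 72-h mice. Its 24-h difference was 0.00 (SE 0.10, adjusted p = 0.974), with a 95% interval of -0.24 to 0.25, and its 72-h difference -1.23 (SE 0.09, adjusted p = 4.72e-06). Mypn, myopalladin, which binds alpha-actinin, likewise was at 103% of control at 24 h (0.03, SE 0.10, adjusted p = 0.802) and 40.8% at 72 h (-1.22, SE 0.08, adjusted p = 1.47e-06). Myoz2, which binds calcineurin at the Z-disc, stood at 35.3% (-1.51, SE 0.12, adjusted p = 5e-06), Ldb3 at 41.8% (-1.27, SE 0.11, adjusted p = 1.07e-05), Nexn, nexilin, at 62.9% (-0.66, SE 0.07, adjusted p = 2.79e-05) and Smpx, a small protein of muscle under stretch, at 69.7% (-0.52, SE 0.08, adjusted p = 0.000332). In each of these all 3 mice at 72 h lay below the controls, a separation whose share over all genes was not computed.

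The 4 genes called higher at 72 h were Tnni1, Synpo2l, Myl4 and Pdlim5. Tnni1 had 0.153, 0.390 and 0.271 FPKM in control mice, 0.141, 0.252 and 0.178 in the 10-min group and 0.436, 0.349 and 0.296 in the 1-h group. Of the later groups, the 6-h mice were at 0.165, 0.476 and 0.174 FPKM, the 24-h mice at 0.441, 0.444 and 0.264 and the 72-h mice at 1.07, 1.20 and 1.54. All 3 mice at 72 h were above all 15 others, at a level that stayed under 2 FPKM (log2 fold change 0.84, SE 0.11, adjusted p = 0.000166, on a scale with 1 added to each FPKM). In quantile normalization the difference was 0.28. Synpo2l, at 138% of control (0.45, SE 0.07, adjusted p = 0.000319), and Pdlim5, at 127% (0.34, SE 0.08, adjusted p = 0.00512), were below their 24-h levels. After median-of-ratios scaling neither was called (0.14 and 0.02). Myl4 had 2.14, 2.16 and 1.67 FPKM in the 10-min group and 2.0, 2.85 and 2.89 in the 1-h group. The 24-h mice had 1.86, 2.25 and 2.66 FPKM and the 72-h mice 2.29, 2.52 and 2.22. Its difference (0.36, SE 0.12, adjusted p = 0.0243) was not called after median-of-ratios scaling (0.15) and turned to -0.21 under quantile normalization. At 72 h the atrial markers Sln and Bmp10 were at 0 in all 3 mice. Over the whole list of 8 atrial markers the sum was 258 to 540.1 FPKM in control mice and 1639 to 2037 FPKM at 72 h, with 2 called higher and 2 lower. Most of that sum was Nppa, the atrial natriuretic peptide that the stressed ventricle also makes (2.46, SE 0.27, adjusted p = 3.86e-05), while Stard10 (-1.27, SE 0.15, adjusted p = 6.35e-05) and Kcnj3 (-1.65, SE 0.16, adjusted p = 1.66e-05) were the lower pair.

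The other 4 genes were not called at 72 h. Des stood at 93.2% of control (-0.10, SE 0.08, adjusted p = 0.293, 95% interval -0.29 to 0.09), and its controls and 72-h mice overlapped. Nebl had 24.2, 11.1 and 28.5 FPKM in the 6-h mice, 32.4, 17.3 and 17.7 in the 24-h mice and 19.3, 25.3 and 19.1 in the 72-h mice, again overlapping the controls (-0.31, SE 0.13, adjusted p = 0.0526, 95% interval -0.60 to -0.02). It was called lower after median-of-ratios scaling (-0.61) and quantile normalization (-0.63). Palld, palladin, an actin-bundling protein that fibroblasts and smooth muscle also make, had 27.3, 30.8 and 28.7 FPKM in control mice, 27.4, 29.1 and 28.0 in the 10-min group and 36.2, 34.8 and 32.1 in the 1-h group. The 6-h mice had 30.4, 27.3 and 29.3 FPKM, the 24-h mice 33.8, 30.7 and 27.5 and the 72-h mice 31.5, 31.1 and 28.8. The 72-h mice lay within the spread of the rest (0.07, SE 0.07, adjusted p = 0.368, 95% interval -0.09 to 0.23), while fibroblast markers summed to 3661 to 4792 FPKM there. After median-of-ratios scaling and quantile normalization Palld was called lower (-0.24 and -0.21). Myl7 had 0, 0.0869 and 0.0245 FPKM in the 10-min group and 0.0400, 0.0723 and 0.0425 in the 1-h group. The 24-h mice had 0.0746, 0.00710 and 0.0487 FPKM and the 72-h mice 0.490, 0.0945 and 0.218, a level too low to read a difference from (0.24, SE 0.13, adjusted p = 0.114).

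Few of these genes were called between 6 h and 24 h. Of the 37, 2 were lower at 24 h than at 6 h, beside 1.94% of all genes, namely Myoz2 (-0.70, SE 0.16, adjusted p = 0.0361) and Lmod2 (-0.51, SE 0.11, adjusted p = 0.0278), and 1 was higher, beside 12.5%, namely Pdlim5 (0.65, SE 0.13, adjusted p = 0.0254). At an unadjusted p under 0.05 8 were lower and 1 higher, beside 828 and 4027 of all 13328 genes tested. The median over the 12 thick filament and M-band genes was -0.50. One fit of all 18 mice called 7 lower and 3 higher, with no share over all genes computed. All 3 calls were lost without any 1 of the 6-h mice or without the second 24-h mouse, at log2 fold changes of -0.71 to -0.66 for Myoz2, -0.54 to -0.49 for Lmod2 and 0.59 to 0.74 for Pdlim5. From 24 h to 72 h 26 genes were lower, beside 13.5% of all genes, and 1 was higher, Tnni1 (0.71, SE 0.13, adjusted p = 0.00374), beside 29.7%. The median of the 37 genes was -0.80 and of all genes 0.13. Lower calls were 13.4% of all calls for the step to 24 h and 31.2% for the step to 72 h as deposited, 47.7% and 46.0% after median-of-ratios scaling, and 42.7% and 55.2% after quantile normalization, which moved the medians of all genes by -0.13 to -0.22. The largest falls of this step were those of Nrap (-1.72, SE 0.11, adjusted p = 5.11e-05), Tcap (-1.61, SE 0.21, adjusted p = 0.00104) and Myl3 (-1.35, SE 0.23, adjusted p = 0.0032), and all 4 genes that had risen at 24 h came down. The others of the 4 were Synpo2l at -1.17 (SE 0.15, adjusted p = 0.00104), Des at -1.04 (SE 0.15, adjusted p = 0.00137) and Pdlim5 at -0.70 (SE 0.13, adjusted p = 0.00402). Among the genes called lower at 6 h, Lmod3, Myh7b, Fhl2 and Mybpc3 were not called in this step, with differences from -0.30 to -0.12. Others of them went down further. Unc45b was called lower, as 2 of 2 assembly genes were, and the mean of Myl2 went from 6262 FPKM at 24 h to 2877 at 72 h. The comparisons with control at 24 h and at 72 h share their control mice, and the step shares the 24-h mice with one and the 72-h mice with the other.

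To set these genes against other genes of the cardiomyocyte, the FPKM of each mouse were also divided by the level of 24 reference genes, 12 of calcium handling and channels and 12 of metabolism, which were chosen with earlier results of these data known. As deposited, 11 of the 12 calcium genes and 12 of the 12 metabolic genes were lower at 72 h, beside 24.2% of all genes, with medians of -0.94 and -1.81. Relative to the 24 genes, 6 of the 37 sarcomere genes were lower at 24 h, beside 2.12% of all genes, and 12 higher, beside 53.1%. At 72 h 6 were lower, beside 1.31%, and 26 higher, beside 92.5%. The counts depended on the reference, since with the calcium genes alone 14 were lower and 10 higher at 72 h, beside 4.96% and 84.8% of all genes. With the metabolic genes alone 2 were lower and 29 higher, beside 0.473% and 95.2%.

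Calls that were the same with the whole reference, with the calcium genes and with the metabolic genes were few. The whole reference is made of the other 2, so the 3 are not independent. The share of all genes called alike in all 3 was not computed. At 24 h Des, Nrap, Pdlim5 and Synpo2l were higher and Myl2, Lmod3 and Myh7b lower in all 3. Leaving out any 1 control mouse took the lower count against the whole reference from 6 to 1, and ended the 24-h calls of Myl2 (-0.44 to -0.36, adjusted p from 0.0546 to 0.0764) and Lmod3 (-0.93 to -0.80, adjusted p from 0.0604 to 0.0771). At 72 h Myl2 and Tcap were lower in all 3, on scales where 0.473% to 4.96% of all genes were called lower. Higher in all 3 were Myl4, Myl7, Tnni1, Des, Nexn, Nebl, Pdlim5, Synpo2l, Palld and Smpx, where 84.8% to 95.2% of all genes were called higher. Of these Myl7 was at a level too low to read a difference from. Tcap at 72 h was -1.11 (SE 0.11, adjusted p = 2.06e-07) against the whole reference, -1.64 (SE 0.15, adjusted p = 6.64e-07) against the calcium genes and -0.79 (SE 0.11, adjusted p = 1.45e-07) against the metabolic genes. Myl2 was -0.54 (SE 0.08, adjusted p = 1.14e-05), -1.07 (SE 0.13, adjusted p = 1.09e-05) and -0.22 (SE 0.08, adjusted p = 0.00827). Tnnt2 lay between the references, at -0.13 (SE 0.13, adjusted p = 0.359) with the calcium genes and 0.72 (SE 0.07, adjusted p = 7.18e-11) with the metabolic genes, as did Ttn at -0.12 (SE 0.17, adjusted p = 0.496) and 0.73 (SE 0.16, adjusted p = 0.00013). Des was 0.87 (SE 0.09, adjusted p = 3e-06) and 1.72 (SE 0.12, adjusted p = 6.53e-13).

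**Figure D4:**
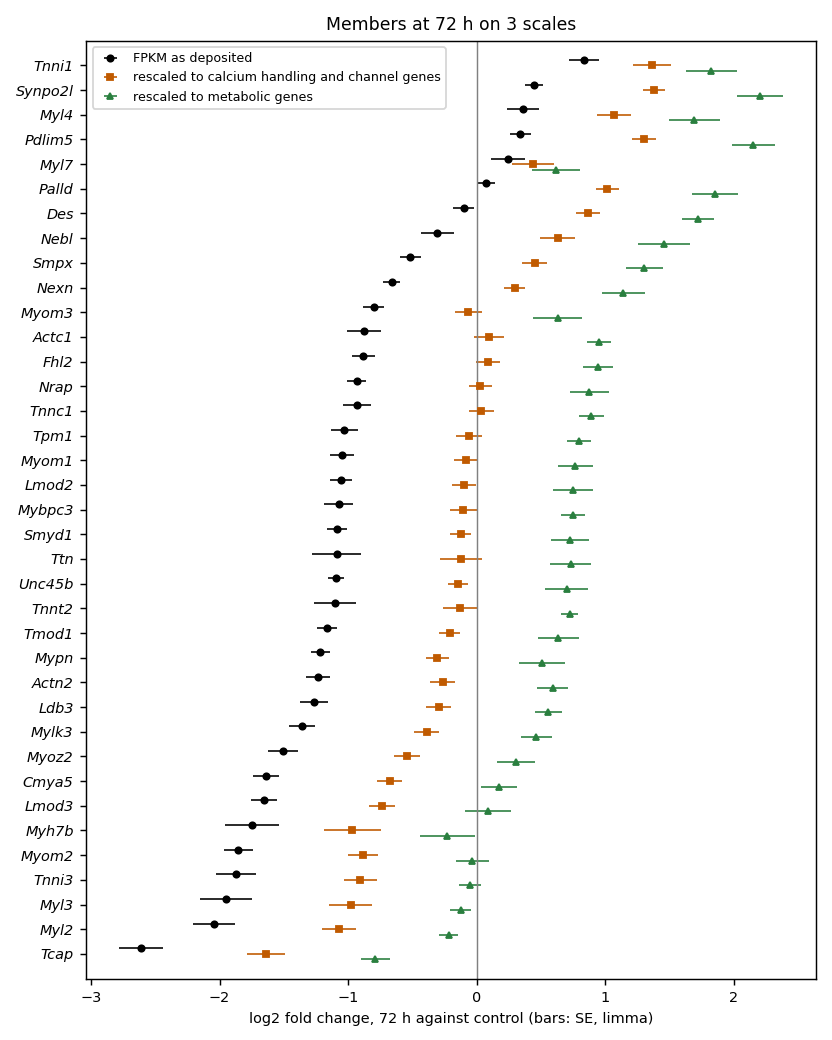
Log2 fold change at 72 h against control (x axis) for the 37 genes (rows, ordered by the value as deposited), with SE from limma as bars, for FPKM as deposited (circles), rescaled to 12 calcium handling and channel genes (squares) and rescaled to 12 metabolic genes (triangles). Tcap and Myl2 are below 0 on all 3 scales. As deposited 29 genes are called lower, beside 24.2% of all genes. With the calcium genes 14 are, beside 4.96%, and with the metabolic genes 2, beside 0.473%.

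Outside the list, 40 further sarcomere and Z-disc genes were counted, of which 38 were tested. At 6 h 4 were lower and 14 higher (median 0.37), beside 16.8% and 11.6% of all genes. The 24-h counts were 5 lower and 21 higher (median 0.59), beside 11.4% and 26.2%, and the 72-h counts 22 lower and 13 higher (median -0.57), beside 24.2% and 53.1%. These stand beside medians of -0.16, -0.28 and -1.07 for the 37 genes. In that wider list the deepest falls at 72 h belonged to Myh6, the main myosin heavy chain of the mouse heart (-1.88, SE 0.14, adjusted p = 3.52e-06), Trim54, a muscle ligase that binds microtubules (-1.84, SE 0.11, adjusted p = 9.88e-07), and Myot, myotilin (-1.65, SE 0.15, adjusted p = 1.28e-05). The rises of largest size there belonged to Tpm4 (2.24, SE 0.10, adjusted p = 1.86e-07), Tpm3 (1.96, SE 0.07, adjusted p = 4.73e-08) and Tpm2 (1.69, SE 0.12, adjusted p = 2.87e-06), tropomyosins that nonmuscle cells, fibroblasts or smooth muscle also make, while Tpm1 was at 49.0% of its control mean.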

How the data were processed

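Hearts of 18 mice (6 groups of 3) were profiled by polyA RNA-seq (NEBNext Ultra libraries, paired-end Illumina reads). Per the study's methods and the submitters' processing notes, the authors trimmed reads with cutadapt 1.18, aligned them to mm10 with HISAT2 2.1.0 and quantified genes with StringTie 1.3.4d, and they deposited FPKM values, one column per mouse. FPKM are relative to all mapped fragments of a library, so an abundant gene that falls raises the values of the others. The gene annotation and whether strand was used are not given in the sources used here. No counts were used, so depth is known only relative to other mice.

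Genes with at least 1 FPKM in at least 1 of the 18 mice were kept (13333 of 24419). Each comparison was fitted on its own 6 mice with limma 3.58.1 (R 4.3.3) on log2(FPKM + 1), with a variance trend and Benjamini-Hochberg adjustment over all genes tested, and a gene was called at an adjusted p under 0.05. Fold changes on this scale understate the change of low genes. No count model was fitted. An exact permutation test of 3 against 3 cannot go below p = 0.1 (two-sided), so none was used. The labels give replicate numbers only, and that replicates are separate mice is from the study, which divided 18 mice into 6 groups. Scripts were tested on simulated data.

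The 37 genes, the role groups, the marker lists and the reference genes were chosen with earlier results of these data known. Values per mouse are given for the most abundant gene of each role group, the 5 largest called falls and rises at 6, 24 and 72 h, genes called in opposite directions, genes not called at 72 h and the atrial genes. Alternatives covered scaling, pseudocount (0.1), filters, a fit of all 18 mice, the variance trend, the replicate block, each mouse left out and the study's thresholds (unadjusted p under 0.05 and a ratio of means over 2). Rescaling divided each mouse by its level over the reference genes. Coordinates are from GENCODE M21 (GRCm38) and promoter sequences from RefSeq (GRCm38.p6). Python 3.11.15 was used for tables and figures.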

Additional observations from a re-analysis of the deposited data

Results flagged for a closer look

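Lmod2 was called in opposite directions at different times after ligation. Its 6-h mice were above control, by 0.34 on the log2 scale (SE 0.07, adjusted p = 0.0152), and its 72-h mice below control (-1.06, SE 0.08, adjusted p = 6.13e-06). The tests between times were called as well, with -0.51 (SE 0.11, adjusted p = 0.0278) from 6 h to 24 h and -0.89 (SE 0.11, adjusted p = 0.000854) from 24 h to 72 h. All 3 mice at 6 h lay above, and all 3 at 72 h below, the 3 controls. Nrap was higher at 24 h (0.79, SE 0.09, adjusted p = 0.00302) and lower at 72 h (-0.93, SE 0.07, adjusted p = 5.06e-06), with -1.72 (SE 0.11, adjusted p = 5.11e-05) from 24 h to 72 h, and again neither group overlapped the controls. All p-values are from limma. The cause of these turns was not tested.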

How the results depend on the processing

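The count of genes called lower at 72 h was 29 or 30 in every fit that left out 1 mouse, and the counts at 6 h and 24 h were less stable. Without 1 mouse, 6-h counts ran from 2 to 12 lower and from 0 to 6 higher, 24-h counts from 2 to 15 lower and from 4 to 4 higher, and 72-h counts from 29 to 30 lower and from 3 to 4 higher. From 6 h to 24 h they ran from 0 to 3 lower and from 0 to 2 higher, and from 24 h to 72 h from 22 to 30 lower and from 1 to 1 higher. After rescaling they ran from 1 to 6 lower and from 5 to 16 higher at 24 h, and from 5 to 7 lower and from 21 to 26 higher at 72 h. The lowest 6-h and 24-h counts came without control replicate 1. One fit of all 18 mice gave 17 lower at 24 h, 2 higher at 72 h, and 7 lower and 3 higher from 6 h to 24 h. Median-of-ratios scaling gave 17 lower at 24 h, 1 higher at 72 h and 0 higher from 6 h to 24 h, and quantile normalization 2 higher at 72 h and 1 lower from 6 h to 24 h. With no filter on low FPKM there were 7 lower at 24 h and 1 lower from 6 h to 24 h, and with a mean FPKM of at least 1 there was 0 higher from 24 h to 72 h, since Tnni1 was then not tested. The study's thresholds gave 2 lower and 1 higher at 6 h, 2 lower and 2 higher at 24 h, 1 higher at 72 h, 0 lower and 0 higher from 6 h to 24 h, and 10 lower from 24 h to 72 h. With the metabolic genes alone as reference 3 were lower at 24 h and 2 lower at 72 h, and with the calcium genes alone 4 were higher at 24 h, 14 lower and 10 higher at 72 h. No share over all genes was computed for fits with a mouse left out, other filters, all 18 mice, the replicate block or the study's thresholds. Nor was one computed for the calcium or metabolic genes alone at 24 h, or for genes whose groups of mice did not overlap.

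Replicate numbers did not pair the mice: over 21 pairs of same-numbered mice the correlation of deviations from group means ran from -0.327 to 0.415, and in 0 comparisons was every pair over 0.1. With the replicate block the 6-h counts were 7 lower and 4 higher, the 24-h counts 11 and 4, the 72-h counts 30 and 4, with 0 and 0 from 6 h to 24 h, and 25 and 1 from 24 h to 72 h.

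Signs turned for Myl3 at 24 h (0.065) and for Myl4 (-0.21), Myl7 (-0.10) and Actc1 (0.011) at 72 h under quantile normalization, for Palld at 72 h under median-of-ratios scaling (-0.24) and quantile normalization (-0.21), and, when the calcium genes alone replaced the whole reference at 72 h, for Ttn (-0.12), Tnnt2 (-0.13), Tpm1 (-0.061), Mybpc3 (-0.10), Myom1 (-0.083), Myom3 (-0.064), Actn2 (-0.26), Ldb3 (-0.30), Lmod2 (-0.10), Tmod1 (-0.21), Unc45b (-0.14) and Smyd1 (-0.12). For Myl3 and Actc1, among the most abundant genes, quantile normalization assigns values by rank and can hide a fall. The cause was not tested. With 3 mice a group, and depth known only relative to the other mice, small differences of low genes such as Myl7 could not be resolved. The same holds for Tnni1 before 72 h.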
